A study of Mus musculus with 14 samples.

Results

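Mitochondrial respiratory chain genes are the nuclear genes whose products build complexes I to V of the inner mitochondrial membrane. They were taken as every region with values in both deposited tables whose gene symbol began with Nduf, with Sdha, Sdhb, Sdhc or Sdhd, with Uqcr, with Cox4 to Cox8, or with Atp5. The rule gave 62 genes, each with 1 region, among 14881 regions with values and 10543 genes with a region. Of these, 27 were assigned by prefix to complex I, 5 to complex II, 6 to complex III, 11 to complex IV and 13 to complex V. The set holds 3 assembly factors, Ndufaf3, Ndufaf4 and Sdhaf1, and Cox7a2l, a factor that joins complexes into supercomplexes. RefSeq lists 103 coding genes whose symbol or older symbol follows the pattern. Of these, 41, such as Cox4i1, Ndufa4 and Uqcrh, are not in the set. A region was found for 69 of the 103, some under another symbol that the rule does not match. Usmg5, now Atp5md, is such a gene and is counted in a further list below.

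Trimethylation of histone H3 at lysine 4 (H3K4me3), a mark of the promoters of active genes, was measured by chromatin immunoprecipitation and sequencing in the cerebral cortex of C57BL/6J mice, 3 months old. The 14 libraries formed 4 groups, all of this strain and age and with no transgene or deletion given in the labels: nicotine during the postnatal period only (4 libraries), saccharin during the same period (4 libraries), nicotine before and after birth (3 libraries) and saccharin before and after birth (3 libraries). The labels describe 1 course for all samples, in which the drinking solutions began with pregnancy, ended when the offspring were 21 days old and were followed by rest until 90 days, so the start of the postnatal-only course is not known here. Neither the sex, the number of mice per sample nor whether libraries came from separate mice is given, and p-values therefore measure only the spread between these samples, which may be technical.

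Oxidative phosphorylation passes electrons from NADH through complex I, or from succinate through complex II, to ubiquinone, then through complex III and cytochrome c to complex IV, which reduces oxygen. Complexes I, III and IV pump protons, and complex V, the ATP synthase, uses the gradient to make ATP. Neurons of the cortex depend heavily on this supply for ion pumping and synaptic transmission. Most subunits are nuclear genes with CpG-rich promoters, many of them bound by nuclear respiratory factor 1 (NRF1), by the ETS factor GABP and by YY1. In whole tissue, a lower mark per cell and fewer marked cells cannot be told apart.

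The deposited values are read counts per region that the authors had already adjusted with edgeR, 1 table per exposure, and are called signal below. Summed signal per library was 2004918 to 2489860 in the postnatal-only table and 1445810 to 2372855 in the pre- and postnatal table, and the 15 strongest regions, none of them at these genes, held 8.30% to 25.5% and 19.1% to 49.7% of it. Within both postnatal-only groups, libraries 1 and 2 differed by about the sampling noise, and so did libraries 3 and 4: their variance was 1.01 to 1.08 times that of counting, under the limit of 1.2 set for averaging, against 2.21 to 2.71 times for the other pairs of a group. The mean of such a pair stands for 1 sample here, which leaves 2 samples a group in the postnatal-only exposure and 3 in the pre- and postnatal exposure. In the pre- and postnatal exposure, nicotine library 1 stood apart from nicotine libraries 3 and 4 in the strongest regions (19.1% of its signal, against 49.7% and 41.9%), and results that rest on it are given with and without it.

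The promoter motifs known for this family were counted first. A RefSeq promoter window (GRCm38.p6, from 250 bases before to 50 bases after the transcription start) was matched for 54 of the 62 genes. The NRF1 motif (GCGCA, any base, then GCGC) occurred on either strand in 15 of the 54 (27.8%), against 11.1% of 8277 genes with an H3K4me3 region and 5.19% of all 27025 genes of the promoter table. The YY1 motif (AA, any base, then ATGGCGG) occurred in 5 (9.26%), against 3.64% and 1.59%. The ETS motif CCGGAAG occurred in 12 (22.2%), against 18.1% and 9.93%. The SP1 motif GGGCGG went the other way, with 26 of the 54 (48.1%) against 71.8% of the genes with a region, and 38.2% of all genes. A TATA box (TATAAA) was present in 5 (9.26%), against 8.67% and 15.7%. Matches of different motifs may overlap. A match is only a run of letters, not a measured binding site.

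By complex, the NRF1 motif was found in 6 of 25 complex I genes, 2 of 4 complex II genes, 1 of 3 complex III genes, 1 of 10 complex IV genes and 5 of 12 complex V genes. Ndufb4 and Sdha held 3 NRF1 matches each, and Cox6a1 and Uqcrc1 held 2 each. All 4 YY1 matches of complex I fell in Ndufa9, Ndufs4, Ndufs6 and Ndufs7. In 7 of the 54 (13.0%, against 13.8% of genes with a region) another gene started within 1000 bases on the opposite strand: Kin beside Atp5c1, Wdr77 beside Atp5f1, Gm34319 beside Atp5k, Asb15 beside Ndufa5, Morn5 beside Ndufa8, Ccdc127 beside Sdha and Timm8b beside Sdhd. None of these 7 partners had a region with values under its own symbol. Each such region carries 1 symbol, so a partner's start may lie in the region named for its neighbour. An unmarked start is therefore not shown.

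**Figure D1:**
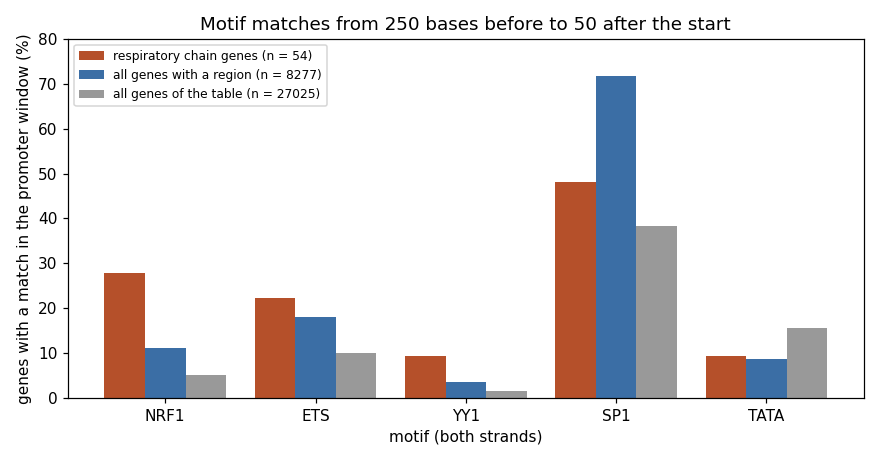
Share of genes (%) with at least 1 match to each of 5 motifs on either strand of the promoter window, for the respiratory chain genes, for all genes with an H3K4me3 region and for all genes of the promoter table. The NRF1 motif is at 27.8% in the respiratory chain genes against 11.1% in genes with a region, while SP1 is at 48.1% against 71.8%.

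Promoter windows are printed for 6 genes on which the results below turn: Cox6a1, with the highest ranking pre- and postnatal difference among genes with a higher mark, Sdha and Sdhd, which each have a neighbour starting within 1000 bases, and the 3 genes of ATP synthase subunit c, which encode the same mature protein from unlike promoters. All lie on the minus strand and are written in the direction of transcription. Capitals mark matches to the NRF1, ETS and YY1 motifs in either orientation. In GRCm38.p6 they lie at chr5:115348909-115349208 (Cox6a1), chr13:74350191-74350490 (Sdha), chr9:50603800-50604099 (Sdhd), chr11:96075582-96075881 (Atp5g1), chr15:102670998-102671297 (Atp5g2) and chr2:73911277-73911576 (Atp5g3).
Cox6a1: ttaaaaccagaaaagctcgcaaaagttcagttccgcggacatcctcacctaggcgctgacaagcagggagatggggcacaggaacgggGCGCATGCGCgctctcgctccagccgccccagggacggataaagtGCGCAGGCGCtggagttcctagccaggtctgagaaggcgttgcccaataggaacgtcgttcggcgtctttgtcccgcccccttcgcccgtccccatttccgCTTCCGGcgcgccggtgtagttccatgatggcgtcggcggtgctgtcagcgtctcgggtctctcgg
Sdha: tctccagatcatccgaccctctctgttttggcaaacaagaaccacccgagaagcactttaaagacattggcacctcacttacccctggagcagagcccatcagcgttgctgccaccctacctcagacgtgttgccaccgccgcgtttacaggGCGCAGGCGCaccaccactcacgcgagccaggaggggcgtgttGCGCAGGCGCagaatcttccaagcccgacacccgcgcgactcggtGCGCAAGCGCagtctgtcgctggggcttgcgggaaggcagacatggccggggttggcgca
Sdhd: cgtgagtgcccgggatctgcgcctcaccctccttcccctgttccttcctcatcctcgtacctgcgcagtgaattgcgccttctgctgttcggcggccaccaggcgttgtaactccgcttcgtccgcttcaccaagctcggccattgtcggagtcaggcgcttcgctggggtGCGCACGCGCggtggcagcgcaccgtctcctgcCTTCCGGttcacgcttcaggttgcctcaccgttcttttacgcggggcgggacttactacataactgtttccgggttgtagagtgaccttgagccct
Atp5g1: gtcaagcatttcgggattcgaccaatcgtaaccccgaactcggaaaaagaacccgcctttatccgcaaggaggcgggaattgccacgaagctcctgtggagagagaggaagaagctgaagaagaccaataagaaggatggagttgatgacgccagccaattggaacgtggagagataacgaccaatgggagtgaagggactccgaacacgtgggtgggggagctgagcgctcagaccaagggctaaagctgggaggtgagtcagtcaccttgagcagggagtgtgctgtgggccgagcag
Atp5g2: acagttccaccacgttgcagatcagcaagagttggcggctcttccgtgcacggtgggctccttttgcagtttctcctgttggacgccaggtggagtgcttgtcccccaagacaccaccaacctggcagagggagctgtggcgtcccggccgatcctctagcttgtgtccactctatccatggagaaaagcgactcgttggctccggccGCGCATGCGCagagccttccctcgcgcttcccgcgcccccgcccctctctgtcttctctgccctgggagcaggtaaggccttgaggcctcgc
Atp5g3: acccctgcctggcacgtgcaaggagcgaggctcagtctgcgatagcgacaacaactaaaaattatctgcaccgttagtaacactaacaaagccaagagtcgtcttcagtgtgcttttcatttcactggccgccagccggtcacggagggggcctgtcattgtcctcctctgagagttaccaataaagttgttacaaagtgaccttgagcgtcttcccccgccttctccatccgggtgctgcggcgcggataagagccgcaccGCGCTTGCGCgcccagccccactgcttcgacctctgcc
Atp5g2 and Atp5g3 each hold 1 NRF1 match and Atp5g1 holds none of the 3 capitalised motifs.

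The respiratory chain genes were marked at the level of an ordinary active promoter. Their regions had a median width of 1675.5 bp (816 to 2608 bp), against 1583 bp over all regions. Per kb of region, the median signal of the set was 46.1 ± 0.11 in postnatal nicotine samples and 49.1 ± 1.99 in postnatal saccharin samples (SD, n = 2 each). The median over all regions with a gene was 55.5 ± 2.35 in nicotine samples and 56.4 ± 0.76 in saccharin samples. In saccharin samples, 25 of the 62 genes lay above the median of regions with a gene in the postnatal-only table and 30 of 62 in the pre- and postnatal table. The order of the 62 genes was much alike in both tables (Pearson's r of log signal per kb 0.86, Spearman's rho 0.90, over 62 genes that share each library). Among the 54 genes with a promoter window, the signal per kb in postnatal saccharin samples went with the CpG ratio of the window (Spearman's rho 0.38). The genes with an NRF1 match had a median of 52.9 per kb, against 47.6 per kb for the other 39. With an ETS match it was 50.5, against 47.4 without. It was lower with a YY1 match (47.2 against 49.1), an SP1 match (47.2 against 50.1) or a TATA box (30.3 against 49.1, 5 genes with it). The 7 genes with another start close by on the opposite strand had 41.9, against 49.5.

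Per kb of region, complexes III, IV and V stood above complexes I and II in the postnatal-only table. For complex II this rests on the division by width, as its regions were the widest (median 2180 bp, against 1632 to 1768 bp). Not divided by width, the median signal in postnatal saccharin samples was 101.0 for complex II, above complex IV (82.7). It was 106.2 for complex III, 111.7 for complex V and 69.9 for complex I. In postnatal saccharin samples the median signal per kb was 71.6 and 68.7 for complex III, 74.2 and 63.0 for complex V, 60.2 and 63.1 for complex IV, 43.3 and 44.2 for complex II and 40.4 and 44.96 for complex I. Complexes III and V overlapped, as did V and IV, and as did II and I, whereas no sample placed complex I or II at the level of III, IV or V. In postnatal nicotine samples the values were 65.0 and 76.8 for complex III, 61.0 and 72.2 for complex V, 58.0 and 63.5 for complex IV, 42.5 and 36.3 for complex II and 40.1 and 40.7 for complex I, with the same gap.

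In the pre- and postnatal table the gap did not hold across samples. Within each single sample except nicotine library 3, complexes I and II still lay below complexes III, IV and V. Over nicotine samples the median signal per kb averaged 50.8 ± 7.46 for complex III, 43.4 ± 8.22 for complex IV, 40.6 ± 2.99 for complex V, 33.9 ± 5.14 for complex I and 32.9 ± 5.99 for complex II (SD, n = 3). Over saccharin samples it averaged 42.4 ± 3.84 for complex III, 35.7 ± 1.72 for complex IV, 42.9 ± 2.48 for complex V, 31.0 ± 2.89 for complex I and 27.1 ± 2.40 for complex II (SD, n = 3). Complex IV, with 33.7 to 36.9 in its 3 saccharin samples, overlapped the upper end of complex I, with 28.2 to 33.9, but not within a sample. In nicotine library 3 complex II (39.5) lay above complex V (38.8), and complex IV in nicotine library 1 (36.5) lay below complex I in nicotine library 4 (38.6).

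**Figure D2:**
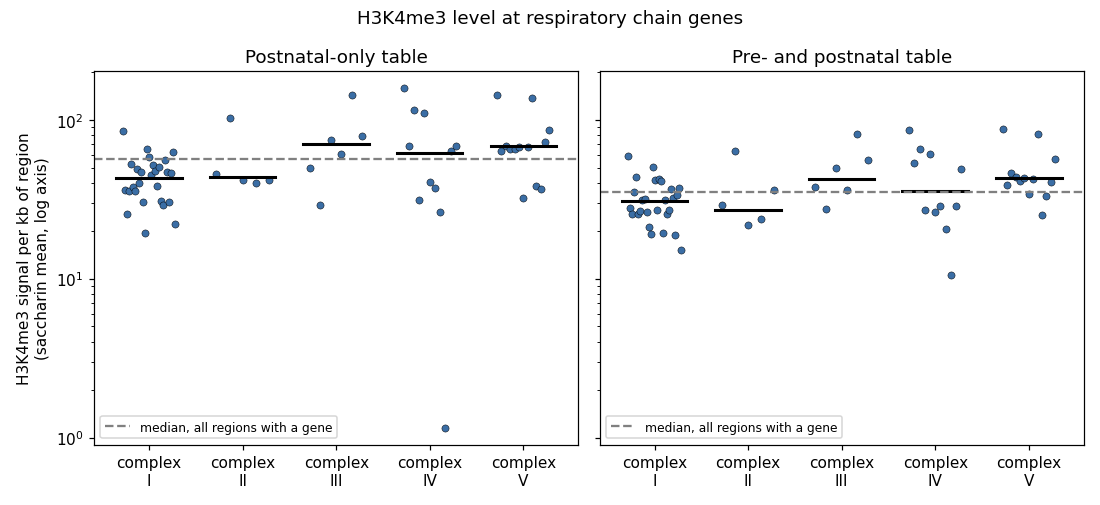
Mean H3K4me3 signal per kb of region in saccharin samples (log axis) for each of the 62 genes, by complex, in the postnatal-only table (left) and the pre- and postnatal table (right). Black lines are the mean over samples of each complex's median and the dashed line is that of all regions with a gene. Complexes I and II (42.7 and 43.8 on the left) lie below the dashed line at 56.4, and Cox7b2 is the lowest gene in both tables.

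Within a complex the mark differed several-fold between subunits. In postnatal saccharin samples complex I ran from 19.3 per kb at Ndufb11, an accessory subunit on the X chromosome, to 85.2 per kb at Ndufa10, an accessory subunit of the membrane arm. Complex III ran from 29.1 per kb at Uqcrb to 142 per kb at Uqcrfs1, the Rieske iron-sulfur protein. Complex IV ran from 1.15 per kb at Cox7b2 to 158.6 per kb at Cox5a. Complex V ran from 32.1 per kb at Atp5g1 to 142.6 per kb at Atp5a1, the alpha subunit of the catalytic head. Cox5a, Cox7b2, Uqcrfs1, Uqcrb, Ndufa10 and Atp5a1 kept these places at the top or the foot of their complex in the saccharin samples of the pre- and postnatal table, while Ndufv3 (15.2 per kb) and Atp5j2 (25.2 per kb) took the foot of complexes I and V there.

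Complex II, succinate dehydrogenase, has 4 subunits, and all 4 were measured. Per kb they lay close together in postnatal saccharin samples, at 45.5 for Sdha, the flavoprotein, and 41.9 for Sdhb, the iron-sulfur protein. The membrane anchors Sdhc and Sdhd were at 40.1 and 41.9 per kb. Not divided by width, Sdhc, with the narrowest region (1284 bp), had 51.5, against 99.3 at Sdha, 101.0 at Sdhb and 109.2 at Sdhd. Sdhaf1, an assembly factor that helps to insert the iron-sulfur clusters of Sdhb, stood at 102.0 per kb. In the pre- and postnatal saccharin samples Sdhaf1 was again highest at 63.4 per kb, and the subunits were at 35.8 (Sdhd), 29.1 (Sdha), 23.8 (Sdhc) and 21.8 per kb (Sdhb).

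The 3 genes of subunit c, which forms the rotor ring of ATP synthase, were marked unequally. Per kb, Atp5g3, Atp5g2 and Atp5g1 had 143, 68.7 and 26.7 in postnatal nicotine samples, against 136, 67.5 and 32.1 in postnatal saccharin samples. They had 90.3, 37.8 and 41.4 in pre- and postnatal nicotine samples, against 81.3, 42.3 and 33.9 in pre- and postnatal saccharin samples. Atp5g3 exceeded Atp5g1 by 5.36 times in postnatal nicotine samples (4.42 to 6.82 times in single samples) and 4.25 times in postnatal saccharin samples (3.46 to 5.28 times). In the pre- and postnatal exposure the ratio was 2.18 in nicotine samples (1.47 to 3.82) and 2.40 in saccharin samples (1.90 to 2.78). Atp5g3 thus led in every sample of both tables.

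The first comparison asks whether nicotine in the postnatal period alone left a difference in the mark at 3 months. By limma on log2(signal + 1) with Benjamini-Hochberg adjustment over 14873 regions, no respiratory chain gene passed an adjusted p of 0.05, as was so for all regions (0% called), and the smallest adjusted p in the set was 1.00. Only Ndufaf3 of the 62 genes had an unadjusted p under 0.05, a level that 1.89% of all regions (281) reached, 0.961% with a higher and 0.928% with a lower mark in nicotine. The mark was higher in nicotine at 21 genes and lower at 41, and 49.1% of all regions were higher. The median log2 difference, nicotine minus saccharin, was -0.04, against -0.004 over all regions. The summed signal of 5 oligodendrocyte markers was also lower in the same nicotine samples, at 337 to 358, against 360.4 to 370.0 in saccharin samples, without overlap. Of these markers, 4 were lower and 1 was higher. Summed over 3 muscle markers, the signal was higher in nicotine, at 39.96 to 49.4, against 35.9 to 39.4, without overlap, with 2 higher and 1 lower. The sums of the other marker lists overlapped, and of all single regions 29.1% separated the 2 groups. The part of these markers in the values of the set was not tested. The 95% confidence interval of a gene's difference, not adjusted over regions, reached a median of 0.37 to either side, a factor of 1.29. Smaller differences were mostly not detectable with these samples. After adjustment over all regions, larger ones could be missed as well: Ndufaf3, at a log2 difference of -0.38, did not pass. The count of 1 gene became 3 without nicotine libraries 1 and 2, 6 without saccharin libraries 1 and 2 and 0 without libraries 3 and 4 of either group, and the median became -0.147 without saccharin libraries 1 and 2. Each of these fits leaves 1 sample in a group, which is assumed to vary like the other group.

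By complex, 7 of 27 complex I genes were higher in nicotine (median log2 difference -0.06), 1 of 5 in complex II (-0.01), 3 of 6 in complex III (-0.004), 5 of 11 in complex IV (-0.04) and 5 of 13 in complex V (-0.08). At 13 genes the 2 groups were separate, with no overlap, as at 29.1% of all regions. Nicotine lay above saccharin at 3 of these (15% of all regions), Uqcrq, Ndufb4 and Ndufaf4, and below it at 10 (14%): Ndufa12, Ndufab1, Ndufb8, Ndufs4 and Ndufaf3 of complex I, Sdha and Sdhc of complex II, Cox7b of complex IV and Atp5f1 and Atp5o of complex V.

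Ndufaf3, which with Ndufaf4 guides the early assembly of complex I, had a signal of 89.7 and 70.3 in postnatal nicotine samples, against 105 and 102 in postnatal saccharin samples (region chr9:108468212-108470819, mm9). Both nicotine samples lay below both saccharin samples, and the log2 difference was -0.38 ± 0.17 (SE, unadjusted p = 0.0405 in limma). Its partner Ndufaf4 had 84.0 and 87.6 in nicotine samples, against 73.0 and 80.6 in saccharin samples. The log2 difference of Ndufaf4, 0.16 ± 0.17 (SE), was within 1 SE of 0.

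Sdha had 86.0 and 76.0 in postnatal nicotine samples, against 102.1 and 96.4 in postnatal saccharin samples (log2 difference -0.29 ± 0.16, SE, unadjusted p = 0.0935 in limma). Sdhc had 36.9 and 41.6 in nicotine samples, against 49.5 and 53.5 in saccharin samples (-0.39 ± 0.25, SE). The nicotine samples lay below the saccharin samples at both genes. The other members of the complex overlapped: Sdhb had 102.5 and 97.8 in nicotine samples, against 104.5 and 97.6 in saccharin samples. Sdhd had 121 and 94.7 in nicotine samples, against 89.9 and 129 in saccharin samples. Sdhaf1 had 149 and 156 in nicotine samples, against 145 and 154 in saccharin samples.

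The 2 largest differences in size came from genes whose samples of 1 group were themselves far apart. Atp5j2, subunit f of the membrane part of ATP synthase, had 53.5 and 32.7 in postnatal nicotine samples, against 45.8 and 72.9 in postnatal saccharin samples (log2 difference -0.45 ± 0.29, SE). Cox7a2, a subunit of cytochrome c oxidase, had 67.1 and 33.5 in nicotine samples, against 47.0 and 87.1 in saccharin samples (-0.42). The groups overlapped at both, and the sign at Cox7a2 turned when 1 sample was left out (0.067 without nicotine libraries 3 and 4, 0.016 without saccharin libraries 3 and 4). In each group the higher value came from the sample with the larger share of signal in the 15 strongest regions, which was 25.2% and 10.04% in nicotine samples and 8.47% and 18.7% in saccharin samples in the same order. Within the pair of samples of high share, nicotine minus saccharin was -0.37 at Cox7a2 and -0.44 at Atp5j2, and within the pair of low share it was -0.47 at both.

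Among genes with a higher mark in postnatal nicotine, Ndufb4, an accessory subunit of the membrane arm, came first by p, with 87.1 and 98.6 in nicotine samples, against 72.0 and 82.7 in saccharin samples (log2 difference 0.26 ± 0.17, SE). Uqcrq, a small subunit of complex III, had 122 and 113 in nicotine samples, against 106 and 105 in saccharin samples (0.15 ± 0.14, SE). As averaged samples, both genes separated the groups. Single libraries at Ndufb4 overlapped, with 77.9 in nicotine library 2, against 91.7 in saccharin library 3. Ndufa6 had 111 and 128 in nicotine samples, against 113 and 103 in saccharin samples. Atp5a1 had 331 and 319.6 in nicotine samples, against 328 and 262 in saccharin samples, and both of these overlapped.

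The second comparison concerns exposure before and after birth. By limma with adjustment over 14879 regions, no respiratory chain gene passed an adjusted p of 0.05, nor did any other region (0% called), and the smallest adjusted p in the set was 0.987. An unadjusted p under 0.05 was found for 3 genes, where 3.59% of all regions (534) reached it: Cox6a1 and Uqcrc2 were higher in nicotine (1.72% of all regions) and Cox7b2 was lower (1.87%). The mark was higher in nicotine at 46 of the 62 genes, against 50.5% of all regions, and the median log2 difference was 0.19, against 0.003 over all regions. The 95% confidence interval of a gene's difference reached a median of 0.51 to either side, a factor of 1.42. The summed signal of 7 markers of neighbouring brain regions was lower in the same nicotine samples, at 239 to 284, against 302 to 339 in saccharin samples, without overlap, and its part in these values was not tested. Of all single regions, 8.95% separated the 2 groups, 4.46% with a lower mark in nicotine.

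By complex, 22 of 27 complex I genes were higher in nicotine (median log2 difference 0.24), 4 of 5 in complex II (0.15), 3 of 6 in complex III (0.14), 9 of 11 in complex IV (0.28) and 8 of 13 in complex V (0.10). The groups were separate at 7 genes, as at 8.95% of all regions. Every nicotine sample lay above every saccharin sample at 6 of them (4.49% of all regions), Ndufc1, Ndufaf4, Uqcrc2, Cox5a, Cox6a1 and Atp5j2, and below it at 1 (4.46%), Cox7b2.

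**Figure D3:**
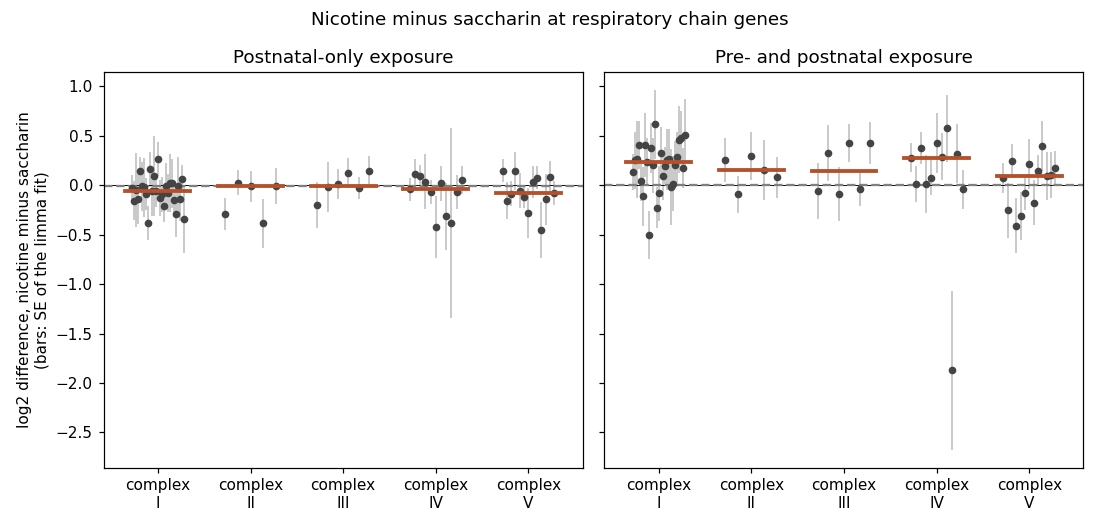
Log2 difference in H3K4me3 signal, nicotine minus saccharin, for each of the 62 genes by complex, with bars of 1 SE from the limma fit, for the postnatal-only exposure (left) and the pre- and postnatal exposure (right). Orange lines are the medians of each complex: -0.06, -0.01, -0.004, -0.04 and -0.08 on the left and 0.24, 0.15, 0.14, 0.28 and 0.10 on the right for complexes I to V, and the dashed line is the median of all regions.

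Cox6a1, the widely expressed isoform of cytochrome c oxidase subunit 6a, had a signal of 159, 140.0 and 177 in pre- and postnatal nicotine samples, against 117, 133 and 115 in pre- and postnatal saccharin samples (region chr5:115797912-115799767, mm9). All 3 nicotine samples lay above all 3 saccharin samples, and the log2 difference was 0.38 ± 0.16 (SE, unadjusted p = 0.0301 in limma). In the postnatal-only exposure the groups overlapped, with 238 and 214 in nicotine samples, against 205 and 219 in saccharin samples. Its promoter, printed above, holds 2 NRF1 matches and 1 ETS match.

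Uqcrc2, a core protein of complex III, had 93.8, 90.5 and 126 in pre- and postnatal nicotine samples, against 73.9, 74.4 and 78.6 in saccharin samples (chr7:127777983-127780088, mm9; log2 difference 0.43 ± 0.19, SE, unadjusted p = 0.0352 in limma). Cox5a, a subunit that binds the catalytic core of complex IV, had 201, 230.1 and 197 in nicotine samples, against 164, 175 and 177 in saccharin samples (0.28 ± 0.15, SE, unadjusted p = 0.0711 in limma). The nicotine samples of both genes lay above all saccharin samples. Uqcrq had 84.3, 98.8 and 114 in nicotine samples, against 56.3, 75.7 and 90.5 in saccharin samples, so that 1 nicotine sample fell below the highest saccharin sample (0.43 ± 0.21, SE, unadjusted p = 0.0530 in limma). Ndufb11, an accessory subunit of complex I, had 23.5, 55.3 and 55.0 in nicotine samples, against 33.2, 28.5 and 20.2 in saccharin samples (0.62 ± 0.35, SE). Nicotine library 1 was the low one, among the saccharin samples.

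Cox7b2, an isoform of cytochrome c oxidase subunit 7b that in human is known from testis, had 1.89, 4.90 and 0 in pre- and postnatal nicotine samples, against 11.4, 7.60 and 6.84 in saccharin samples (chr5:71936635-71937451, mm9; log2 difference -1.87 ± 0.80, SE, unadjusted p = 0.0296 in limma). Its region carried the weakest mark of the set, with 1.11 and 0.001 in postnatal nicotine samples, against 0.51 and 1.38 in postnatal saccharin samples, and both exposures thus compare values that are low for the set. Ndufaf3 came next among the lower genes, with 74.1, 66.6 and 38.2 in nicotine samples, against 97.7, 79.3 and 70.7 in saccharin samples (-0.50 ± 0.24, SE, unadjusted p = 0.0509 in limma). It was thus lower in nicotine on average in both exposures, while Ndufaf4 was higher in both, with 55.9, 51.5 and 58.9 in pre- and postnatal nicotine samples, against 33.4, 45.2 and 50.2 in saccharin samples.

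Atp5d, Atp5e and Ndufb2 followed by p among the 16 genes with a lower mark, and all had overlapping groups and their lowest value in nicotine library 4. Atp5d, the delta subunit of the central stalk of ATP synthase, had 57.0, 41.6 and 27.4 in nicotine samples, against 46.9, 55.7 and 59.4 in saccharin samples. Atp5e, the epsilon subunit beside it, had 63.6, 62.0 and 38.2 in nicotine samples, against 72.8, 56.5 and 71.5 in saccharin samples. Ndufb2 had 91.1, 96.9 and 58.8 in nicotine samples, against 97.8, 84.5 and 101.0 in saccharin samples.

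**Figure D4:**
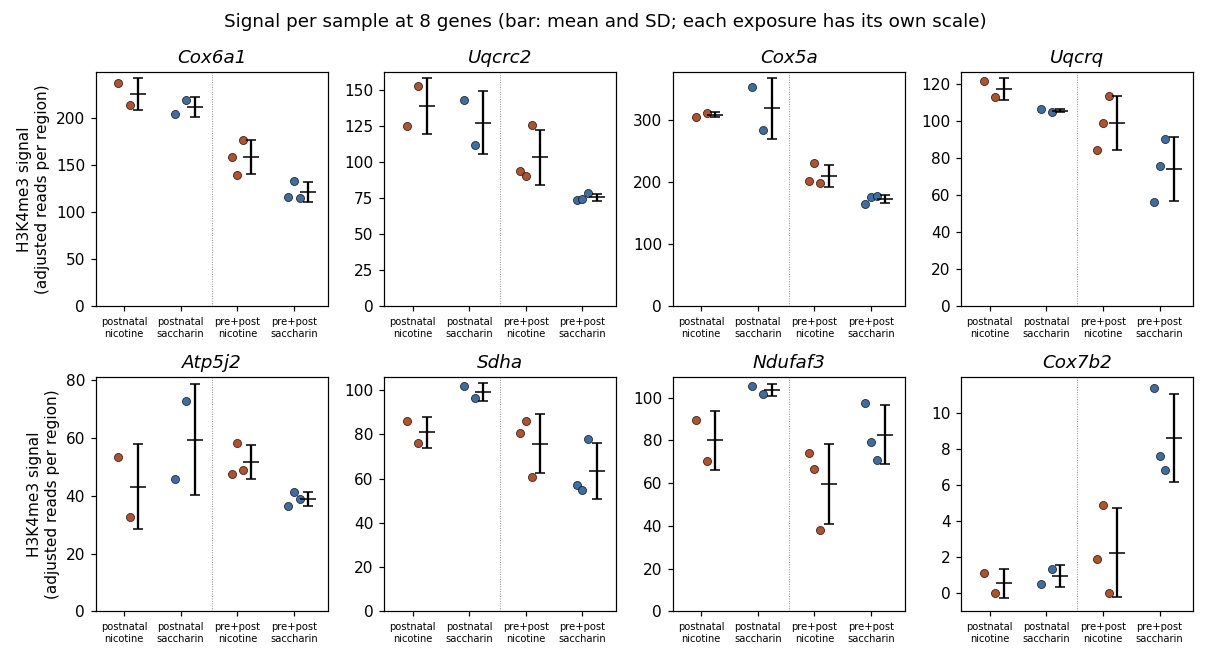
H3K4me3 signal (adjusted reads per region) of each sample at 8 genes, with mean and SD beside the points, for postnatal nicotine and saccharin and for pre- and postnatal nicotine and saccharin, whose 2 tables have separate scales. The 3 pre- and postnatal nicotine samples lie above the 3 saccharin samples at Cox6a1, Uqcrc2, Cox5a and Atp5j2 and below them at Cox7b2.

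The level of the set as a whole moved between samples. Divided by the median of all regions in the same sample, the median signal per kb of the 62 genes was 1.09, 1.19 and 1.23 in pre- and postnatal nicotine libraries 1, 3 and 4, against 1.00, 1.14 and 1.06 in saccharin libraries 1, 2 and 3. Nicotine library 1 lay below saccharin library 2, so the groups overlapped. Of their summed signal, these nicotine libraries held 19.1%, 49.7% and 41.9% in the 15 strongest regions, against 39.9%, 28.8% and 33.1% in these saccharin libraries. In the postnatal-only exposure the ratio was 0.956 and 0.916 in nicotine samples, against 0.946 and 1.00 in saccharin samples, and the groups overlapped again.

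**Figure D5:**
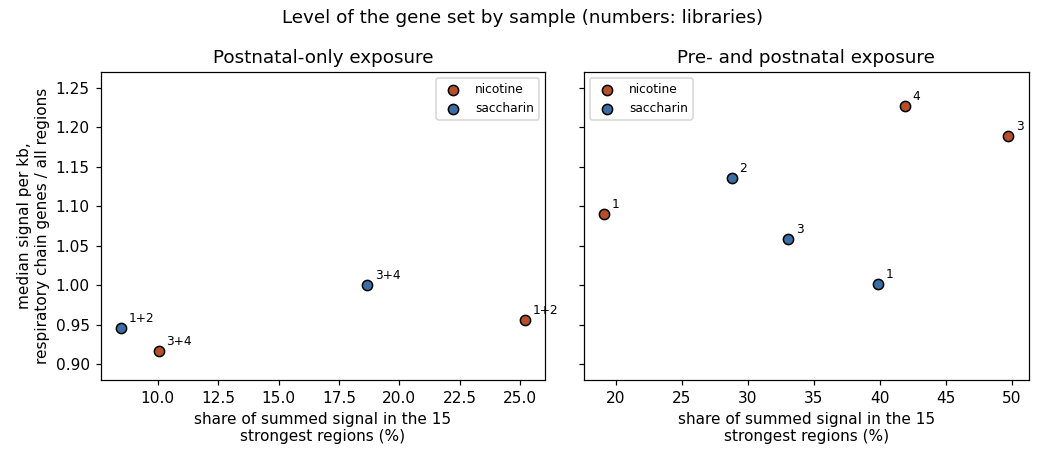
Median signal per kb of the 62 respiratory chain genes divided by that of all regions, against the share (%) of summed signal in the 15 strongest regions, for each nicotine and saccharin sample of the postnatal-only exposure (left) and the pre- and postnatal exposure (right). Pre- and postnatal nicotine libraries 3 and 4 have the highest ratios, 1.19 and 1.23, and nicotine library 1, at 1.09, lies among the saccharin libraries.

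Without pre- and postnatal nicotine library 1, 16 of the 62 genes (25.8%) had an unadjusted p under 0.05 in limma, where 11.4% of all regions did. Of these, 13 were higher in nicotine (5.99% of all regions) and 3 were lower (5.36%). Complex I supplied 8 of the 16, complex III 3, complex IV 3, complex V 2 and complex II none. No respiratory chain gene passed an adjusted p of 0.05, whereas 17 regions outside the set did (0.114% called, 0.108% higher and 0.00672% lower in nicotine), and the smallest adjusted p in the set was 0.208, at Ndufa9. The leading genes by p were Ndufa9 (log2 difference 0.87 ± 0.26, SE), an accessory subunit near the ubiquinone site, Ndufb11 (1.02 ± 0.31), Cox7a2 (0.82 ± 0.26) and Uqcrb (0.70 ± 0.24), all higher in nicotine, and Ndufaf3 (-0.69 ± 0.25), lower. The core subunits Ndufs7 (0.81 ± 0.31) and Ndufv1 (0.59 ± 0.29) of complex I were also among the 16. Both remaining nicotine libraries had a larger share of signal in the 15 strongest regions (49.7% and 41.9%) than every saccharin library (28.8% to 39.9%). This fit cannot tell nicotine from this share. In the postnatal-only exposure, samples of high minus low share differed by 0.91 at Ndufa9, 0.66 at Ndufb11 and 0.93 at Cox7a2 (log2). It was 0.36 at Uqcrb and 0.15 at Ndufaf3, genes named here as leaders of the fit. Over all 62 genes the median was 0.05, with 40 above 0 (64.5%). Over all regions the median was -0.002, with 49.7% above 0. The part of the share in these values was not tested. Nicotine library 1 was left out after the values had been seen, and 6 genes had an unadjusted p under 0.05 without nicotine library 3, 2 without saccharin library 3 and 1 without nicotine library 4, saccharin library 1 or saccharin library 2.

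A further comparison asks whether the effect of nicotine differed between the 2 exposures. Each effect was taken within its own table. By limma over 14871 regions, the difference passed an adjusted p of 0.05 at no respiratory chain gene and at no region (0% called). Atp5j2 alone had an unadjusted p under 0.05, a level reached by 1.47% of all regions (219), of which 0.726% had the higher effect in the pre- and postnatal exposure, as Atp5j2 did, and 0.746% the lower. The effect was higher in the pre- and postnatal exposure at 43 of the 62 genes, against 49.4% of all regions. At 32 of the 62 genes the mark was lower in nicotine in the postnatal-only exposure and higher in the pre- and postnatal exposure, at 7 the reverse held, at 14 it was higher in both and at 9 lower in both. The count of 1 gene became 6 without pre- and postnatal nicotine library 1, and 0 to 2 without any other sample, again with 1 sample left in a postnatal group where one of its samples was left out.

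Atp5j2 had 53.5 and 32.7 in postnatal nicotine samples, against 45.8 and 72.9 in postnatal saccharin samples, and 47.3, 58.2 and 49.1 in pre- and postnatal nicotine samples, against 36.4, 41.4 and 38.9 in saccharin samples. The pre- and postnatal effect minus the postnatal effect was 0.85 ± 0.40 on the log2 scale (SE, unadjusted p = 0.0477 in limma). Sdha followed with 0.55 ± 0.31 (SE, unadjusted p = 0.0887 in limma), with 80.6, 86.2 and 60.8 in pre- and postnatal nicotine samples, against 57.3, 54.9 and 77.9 in saccharin samples. Cox7b, the widely expressed form of subunit 7b, came next with 0.89 ± 0.51 (SE). It had 25.05 and 24.6 in postnatal nicotine samples, against 25.2 and 38.3 in postnatal saccharin samples, and 29.3, 34.6 and 47.2 in pre- and postnatal nicotine samples, against 34.2, 21.9 and 18.5 in saccharin samples.

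Genes that serve the respiratory chain from outside the set were counted in 4 further lists, and none of them passed an adjusted p of 0.05 in either exposure. Of 18 measured assembly factors outside the set, 6 were higher and 12 lower in postnatal nicotine, and 7 were higher and 11 lower in pre- and postnatal nicotine (median log2 differences -0.04 and -0.05). The lowest p belonged to Cox10, which makes the heme of complex IV, in the postnatal-only exposure (48.0 ± 4.39 in nicotine samples and 62.9 ± 1.85 in saccharin samples, SD) and to Sco2, a copper chaperone of complex IV, in the pre- and postnatal exposure (59.7 ± 8.52 in nicotine samples and 91.2 ± 5.80 in saccharin samples, SD; log2 difference -0.61 ± 0.20, SE).

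Of 18 measured genes for electron carriers, ubiquinone synthesis and related subunits, 11 were higher and 7 lower in postnatal nicotine, and 15 were higher and 3 lower in pre- and postnatal nicotine (medians 0.05 and 0.11). Etfa, a subunit of the electron transfer flavoprotein, had the lowest p in the postnatal-only exposure (159 ± 24.4 in nicotine samples and 132 ± 21.1 in saccharin samples, SD). Higd1a, a small protein of the inner membrane, had it in the pre- and postnatal exposure (155 ± 4.51 in nicotine samples and 118 ± 12.5 in saccharin samples, SD).

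Of 16 measured genes of the citric acid cycle and pyruvate dehydrogenase, 9 were higher and 7 lower in postnatal nicotine, and 8 were higher and 8 lower in pre- and postnatal nicotine (medians 0.03 and -0.02), led by the fumarase gene Fh1 and by Idh3b, a subunit of isocitrate dehydrogenase. Of 21 measured regulators of mitochondrial gene expression, 9 were higher and 12 lower in postnatal nicotine, and 18 were higher and 3 lower in pre- and postnatal nicotine (medians -0.02 and 0.11), led by the deacetylase gene Sirt1 and by Mterfd3, a mitochondrial transcription termination factor family member (44.3 ± 12.7 in pre- and postnatal nicotine samples and 26.8 ± 2.59 in saccharin samples, SD). Of 8 tissue-restricted subunit isoforms, Cox7b2 was the measured one.

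Markers of the labelled tissue and of other cell types were measured in part. The neuronal markers Snap25, Tubb3, Camk2a, Slc17a7 and Gad2 were measured (5 of 11 listed), with 5 of 8 of oligodendrocytes, 1 of 7 of astrocytes (Slc1a2), 3 of 8 of endothelial and mural cells, 1 of 8 of microglia (Irf8), 3 of 11 of striated muscle and 1 of 6 of blood (Klf1). Rbfox3, Gfap and Aqp4 are not analysed here. None of the measured markers averaged under 1 in either table. Markers of neighbouring brain regions (striatum, thalamus and choroid plexus) had 7 of 11 genes measured, and all 7 were lower in pre- and postnatal nicotine (median log2 difference -0.43), led by Tcf7l2 (33.8 ± 7.10 in nicotine samples and 50.4 ± 5.48 in saccharin samples, SD). In the postnatal-only exposure their summed signal was 500.5 to 552 in nicotine samples, against 507 to 536 in saccharin samples, and Gbx2, a thalamic marker, had the lowest p (24.9 ± 4.85 in nicotine samples and 41.6 ± 1.38 in saccharin samples, SD; log2 difference -0.73 ± 0.31, SE).

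The summed signal of neuronal markers was 289.9 to 363 in pre- and postnatal nicotine samples, against 281 to 317 in saccharin samples, and 327 to 390.4 in postnatal nicotine samples, against 314 to 389 in postnatal saccharin samples. In the pre- and postnatal exposure, 3 of the 5 were higher and 2 lower in nicotine. The log2 difference was 0.42 ± 0.20 at Camk2a, a marker of excitatory neurons with the lowest p of the list, 0.28 at Slc17a7, 0.09 at Tubb3, -0.16 at Snap25 and -0.48 ± 0.54 at Gad2, a marker of inhibitory neurons (SE). In the postnatal-only exposure Gad2 had the lowest p (0.56 ± 0.43, SE). Oligodendrocyte markers summed to 176 to 235 in pre- and postnatal nicotine samples, against 178 to 207 in saccharin samples. Mbp, a myelin protein gene, had the lowest p in both exposures, with a log2 difference of -0.23 ± 0.17 in the postnatal-only and 0.29 ± 0.26 in the pre- and postnatal exposure (SE).

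Muscle markers summed to 29.4 to 38.8 in pre- and postnatal nicotine samples, against 30.04 to 40.5 in saccharin samples, with members that went opposite ways. Myod1 had 3.95 ± 1.90 in nicotine samples and 13.2 ± 3.47 in saccharin samples (SD), and Ckm had 24.8 ± 4.34 in nicotine samples and 13.5 ± 3.99 in saccharin samples (SD). In the postnatal-only exposure Des had the lowest p of this list (log2 difference 0.51 ± 0.51, SE). Endothelial and mural markers summed to 72.6 to 110.01 in pre- and postnatal nicotine samples, against 85.2 to 101 in saccharin samples, and to 121 to 128 in postnatal nicotine samples, against 114 to 146 in postnatal saccharin samples. Vwf had the lowest p there in both exposures (0.80 ± 0.59 in the postnatal-only and 0.23 ± 0.44 in the pre- and postnatal exposure, SE).

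Microglial Irf8 had 1.41 to 10.8 in pre- and postnatal nicotine samples, against 6.36 to 11.4 in saccharin samples, and 5.46 to 6.38 in postnatal nicotine samples, against 2.10 to 5.96 in postnatal saccharin samples. The blood marker Klf1 had 10.3 to 25.6 in pre- and postnatal nicotine samples, against 21.4 to 39.4 in saccharin samples, and 57.4 to 68.5 in postnatal nicotine samples, against 53.2 to 68.9 in postnatal saccharin samples. Astrocytic Slc1a2 had 97.8 to 125 in pre- and postnatal nicotine samples, against 87.4 to 108 in saccharin samples, and 166 to 191 in postnatal nicotine samples, against 178 to 183 in postnatal saccharin samples. The groups overlapped at these 3 genes in both exposures. No marker passed an adjusted p of 0.05 in limma. The part of these marker differences in the values of the respiratory chain genes was not tested.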

How the data were processed

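H3K4me3 immunoprecipitates of cerebral cortex were sequenced in 14 libraries. The deposited values are signal per region, read counts that the authors adjusted with edgeR in build mm9, per the submitters' processing notes. The columns are named after alignment files, per the file headers. The sources used here do not give the aligner, peak caller, versions, filters or raw depth, and whole reads could not be recovered. Each table had 19203 rows, of which 4322 repeated a region and held no value. All value columns matched a sample (0 left out).

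Postnatal libraries whose variance was under 1.2 times that of counting were averaged. The values were log2-transformed with a pseudocount of 1, regions with at least 1 in the smaller group's number of samples were kept, and limma 3.58.1 (R 4.3.3, with the trend option) was fitted to each table, two-sided, with Benjamini-Hochberg adjustment over all its regions and a threshold of 0.05. A fold change on this scale understates low regions. Of several regions of a gene, the one with the highest mean would stand for it. The script was tested on simulated data. Alternatives are given in the closing section, and the trimmed mean of M-values scaling among them was coded directly because the values are not raw counts. The deposited tables keep no raw depth, so no counting interval is given.

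Members, lists and tests were chosen with earlier results of these data known. Genes named are, per exposure, the 5 with the lowest p in each direction, the highest and lowest per kb of each complex, all of complex II, the subunit c genes and the 3 with the lowest p between exposures. Ndufa9, Cox7a2, Ndufs7, Ndufv1 and Uqcrb in the comparison without nicotine library 1, the extreme genes Ndufv3 and Atp5j2, the listed non-overlapping genes, the neuronal markers beyond Camk2a and Gad2, and Ckm were named after their values were seen. Of other lists, the gene with the lowest p in each exposure is named. Promoter sequences are from RefSeq (GRCm38.p6), and mm9 coordinates were not converted. Replicate numbers were not taken to pair samples.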

Additional observations from a re-analysis of the deposited data

Results flagged for a closer look

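Among the 28 named genes, 56 groups of 4 postnatal libraries were examined for a library far from the others of its group, and 3 such libraries were found. The limit used is passed by about 1 in 20 groups of 4 independent values. Libraries 1 and 2, like 3 and 4, were treated as 1 sample here, so the rate to be expected is not known. At Ndufb4, nicotine library 2 had a signal of 77.9, against 96.4 to 99.3 in the other nicotine libraries. Also at Ndufb4, saccharin library 3 had 91.7, against 71.7 to 73.7 in the other saccharin libraries. At Cox7b2, nicotine library 1 had 2.21, against 0 to 0.018 in the other nicotine libraries. Groups of 3 were not examined.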

How the results depend on the processing

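No respiratory chain gene passed an adjusted p of 0.05 in either exposure or in the difference between them, under any alternative run: pseudocounts of 0.5 and 10, no filter or a mean of at least 20, quantile normalization, trimmed mean of M-values scaling, signal summed over a gene's regions, the share in the strongest regions as a term, all 8 postnatal libraries, and each sample left out. The smallest adjusted p over these was 0.441 for the postnatal-only exposure, 0.148 for the pre- and postnatal exposure and 0.723 for the difference. The median log2 difference ranged from -0.15 to -0.02 in the postnatal-only exposure, with -0.147 without postnatal saccharin libraries 1 and 2 and from 0.11 to 0.43 in the exposure before and after birth. It was 0.429 without pre- and postnatal nicotine library 1 and with the share as a covariate, an alternative chosen after seeing the data. Reversed directions were found for Cox7a2 in the postnatal-only exposure (0.067 without nicotine libraries 3 and 4, 0.016 without saccharin libraries 3 and 4), Atp5a1 in the same exposure (-0.014 without saccharin libraries 3 and 4) and Sdha in the pre- and postnatal exposure (-0.030 in the added alternative); the cause was not tested. Genes at an unadjusted p under 0.05 numbered 0 to 6 in the postnatal-only exposure, with 6 without saccharin libraries 1 and 2, and 1 to 16 in the pre- and postnatal exposure, with 16 without nicotine library 1, 13 in the added alternative and 6 without nicotine library 3. For the difference they numbered 0 to 6, with 6 without nicotine library 1. Complex levels in saccharin samples moved by less than 1 SD under quantile normalization, trimmed mean of M-values scaling and, for the postnatal-only table, all 8 libraries. Leaving out 1 saccharin sample cannot move a mean of 2 or 3 samples by 1 SD of those samples. It therefore could not show a larger move. With the replicate number as a block, 0 genes were called in either exposure, and the genes at an unadjusted p under 0.05 fell to 0 and 1. Same-numbered samples deviated from their groups with a correlation of -0.49 in the postnatal-only exposure. In the pre- and postnatal exposure the correlations were -0.10 and -0.08, so the numbers do not pair the samples. With 2 samples a group, the negative postnatal value means that crossed samples of the 2 treatments deviated alike. The main postnatal fit has no term for this and leaves it in the error. With postnatal pairs crossed, 0 genes were called. The 2 or 3 samples a group limit what could be detected.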
